A study of Brassica napus with 6 samples.

Results

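The families miR162, miR168 and miR403 act on mRNAs of the silencing machinery itself, and they were described here in young pods of rapeseed (Brassica napus). Their members were all known miRNAs and all degradome entries whose name holds one of these family numbers. That gave 4 of 69 known miRNA names (ath-miR162a-3p, nta-miR168a, ath-miR168a-5p and ath-miR403-3p), 4 of 162 entries in the degradome of the long-silique line and 11 of 577 in that of the short-silique line. Known miRNAs carry the name of a match in rapeseed itself (bna) or in another species, such as Arabidopsis thaliana (ath), Brassica rapa (bra) or tobacco (nta).

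The study set a line with long siliques (LS) against a line with short siliques (SS), the silique being the seed pod. Per the labels, both are populations of backcross progeny from the cross 8008 × 4942, grown in an experimental field, and neither got a treatment that the labels name. Pistils and siliques from 0 to 7 days after pollination were taken, from about 12 plants at each stage, in 2 repeats of the experiment. The data were 2 small RNA libraries per line and 1 degradome library per line. A degradome library collects the 5′ ends of cut mRNAs, so a peak of such ends inside a miRNA's pairing site marks cleavage there.

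In plants, the enzyme DICER-LIKE1 (DCL1) cuts miRNAs from their precursors, and ARGONAUTE1 (AGO1) carries most of them and cuts the paired mRNA. In Arabidopsis, miR162 acts on DCL1 mRNA, miR168 on AGO1 mRNA and miR403 on AGO2 mRNA, so that the pathway acts on its own components.

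The deposited degradome tables print 3 miRNAs of these families, shown here because each cleavage site below is defined by pairing with one of them. Sequences run 5′ to 3′ in DNA letters, and capitals mark the seed (bases 2 to 8).
bra-miR162-3p: tCGATAAAcctctgcatccag
bra-miR168c-5p: tCGCTTGGtgcaggtcgggac
ath-miR168a-5p: tCGCTTGGtgcaggccgggaa
The miR168 names share a seed and 19 of 21 bases. From ath-miR168a-5p to bra-miR168c-5p the differences are C15T and A21C, with positions counted from 1 at the 5′ end. The letters are those the deposited tables print under these names and were not compared with a miRNA database, so C15T holds for the printed sequences only. The seed of miR162 is another one. Of these names, only ath-miR168a-5p is also among the counted ones. The sources used here give no sequence for nta-miR168a, ath-miR162a-3p or ath-miR403-3p. Whether the sites below pair with the miRNAs whose levels are given was therefore not tested for those names.

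The sites these miRNAs were paired with are shown because they separate the targets into 3 kinds. Capitals mark bases outside a Watson-Crick pair in the deposited alignment (with bra-miR168c-5p for the miR168 sites).
miR162 site of BnaA10g00800D and BnaC05g00860D: ctggatgcagaggtAttatcga
miR168 site of BnaA05g17460D, BnaA08g03260D, BnaC05g25730D and BnaC08g46720D: TtcccgaGctgcaTcaagcTa
miR168 site of BnaCnng63830D: gtcAcgaTcAtgcccaagga
The targets are given by identifier, since none of these 7 identifiers matched the RefSeq gene table of the Da-Ae assembly. Which of them is a DICER-LIKE or an ARGONAUTE gene was therefore not analysed here.

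The library totals ran from 6046506 to 6739286 reads. Of these totals, 4.82% were reads of known miRNAs in each library of LS, and 6.51% and 6.50% in those of SS, which bears on every level below. A chi-square test of the counts of 55 known miRNAs with 10 or more summed reads gave 0.904 per degree of freedom (p = 0.675) between the LS libraries. No difference beyond sampling noise was thus detected between these, and the LS levels below count them as 1 sample. The tests and overlaps between the lines take each LS library on its own unless said otherwise, so their p-values may be too small. For calls of nta-miR168a and ath-miR162a-3p, a fit with both LS libraries summed is given as well. Over the same 55 miRNAs, the chi-square test between the SS libraries gave 1.61 per degree of freedom (p = 0.00269). Nothing ties each library to its own set of plants, so the p-values below cover variation between libraries that may be technical.

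miR168 was by far the most abundant of the 3 families in both lines. Its main name, nta-miR168a, was read 29289 and 30571 times in LS libraries 1 and 2, against 28771 and 29852 times in SS libraries 1 and 2. This was rank 5 of the 69 known miRNAs in every library. In reads per 1000000 total reads (RPM), its level was 4569.7 and 4536 in LS and 4758 and 4662 in SS. Both SS libraries lay above both LS libraries, by little, and the SS libraries differed from each other beyond counting error (exact binomial test, p = 0.0136). The LS level was 4553 RPM (95% Poisson interval of the summed counts 4516 to 4589) and the SS level 4710.2 ± 68.0 RPM (SD, n = 2), a ratio of 1.03 (exact counting interval 1.02 to 1.05). Intervals of this kind cover counting error only.

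Among known miRNA reads, the order of the lines was the opposite. nta-miR168a held 9.47% and 9.41% of these reads in LS and 7.31% and 7.18% in SS, with Wilson 95% intervals that together span 9.31% to 9.58% in LS and 7.10% to 7.39% in SS. Here both SS libraries lay below both LS libraries, by 1.30-fold. Of the 52 miRNAs with enough reads to be tested, 42 (80.8%) had both SS libraries above both LS libraries in RPM and 4 (7.69%) below. As a share of known reads, 19 (36.5%) had both SS libraries above and 21 (40.4%) below, so neither order sets miR168 apart.

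The other name of the family, ath-miR168a-5p, was near the limit of detection. It had 1 and 8 reads in LS and 4 and 5 reads in SS, that is 0.156 and 1.19 RPM in LS and 0.662 and 0.781 RPM in SS. The LS libraries lay on either side of the SS libraries. The ratio of SS to LS was 1.06 with an exact counting interval of 0.371 to 3.0, so a difference was not detectable at this depth. It fell under the minimum of 10 reads in 2 libraries and was left out of the test, so 3 of the 4 names were tested. How reads that match both miR168 names were assigned is not given in the sources used here.

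ath-miR162a-3p, the miRNA that acts on DCL1 mRNA in Arabidopsis, had 149 and 144 reads in LS and 168 and 201 in SS. Its levels were 23.2 and 21.4 RPM in LS and 27.8 and 31.4 RPM in SS, and the lines did not overlap. As given above, 80.8% of the tested miRNAs had SS above LS in this way. The LS level was 22.3 RPM (19.8 to 25.0) and the SS level 29.6 ± 2.55 RPM (SD, n = 2), a ratio of 1.33 (exact counting interval 1.14 to 1.56). As a share of known miRNA reads it stood at 0.0482% and 0.0443% in LS and at 0.0427% and 0.0483% in SS, where the lines overlapped.

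ath-miR403-3p, which acts on AGO2 mRNA in Arabidopsis, had 78 and 69 reads in LS and 87 in each SS library. Its levels were 12.2 and 10.2 RPM in LS and 14.4 and 13.6 RPM in SS, again with no overlap, as for 80.8% of the tested miRNAs. The LS level was 11.2 RPM (9.45 to 13.1) and the SS level 14.0 ± 0.566 RPM (SD, n = 2), a ratio of 1.25 whose exact counting interval of 0.998 to 1.57 includes equality. Its share of known reads was 0.0252% and 0.0212% in LS and 0.0221% and 0.0209% in SS, with overlap. In both lines the order of the levels was thus nta-miR168a, ath-miR162a-3p, ath-miR403-3p and ath-miR168a-5p, and no neighbours in this order overlapped in RPM.

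**Figure D1:**
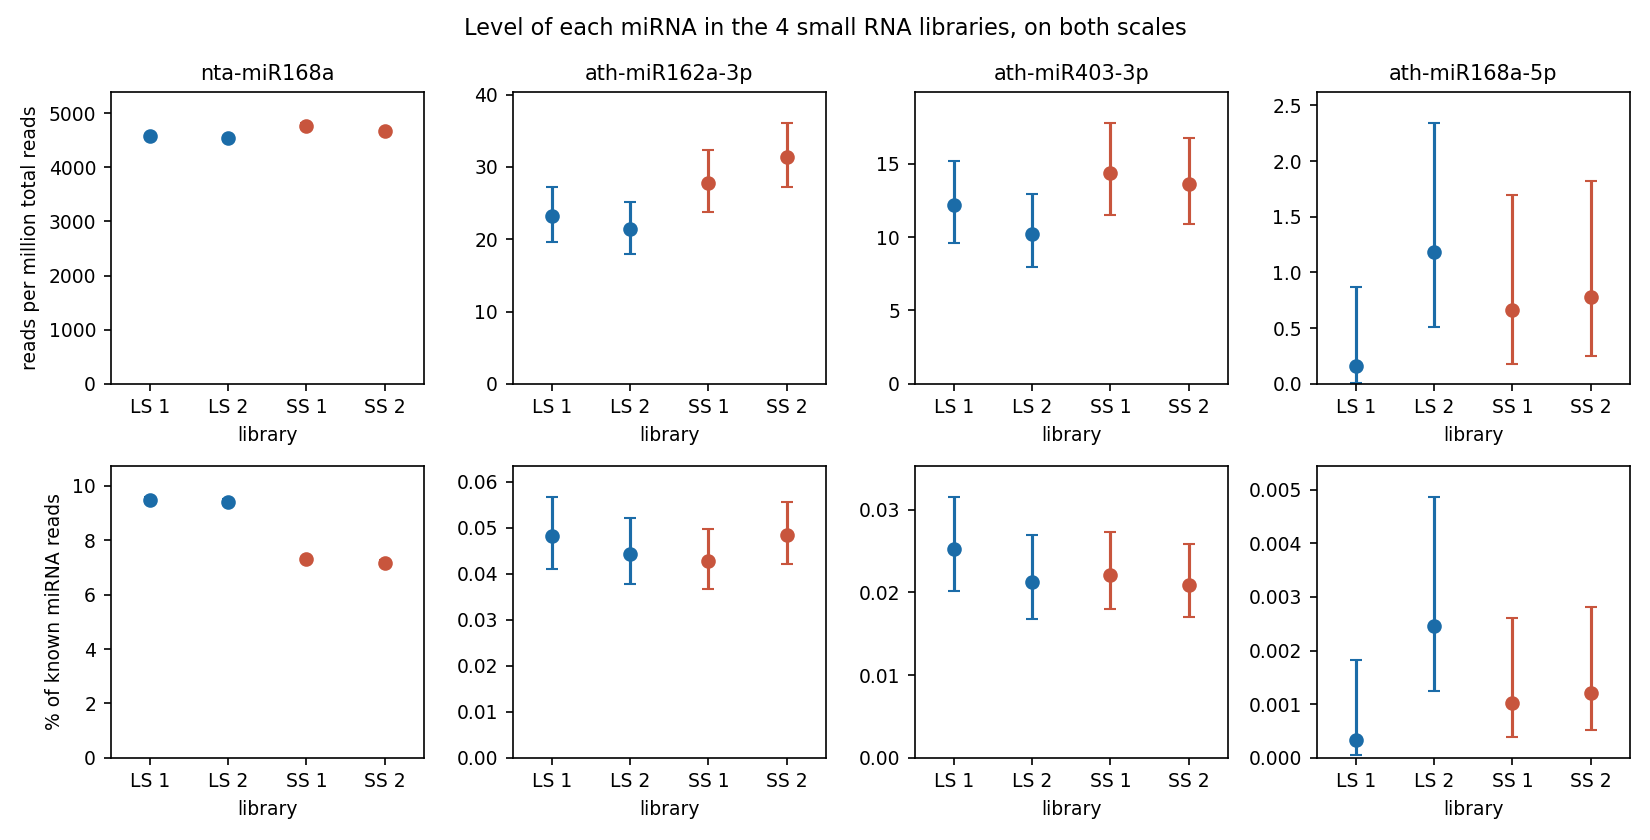
Reads of each of the 4 miRNAs per 1000000 total reads (upper row) and as a percentage of known miRNA reads (lower row) in the LS (blue) and SS (red) libraries, each point 1 library, bars 95% Poisson (upper) and Wilson (lower) counting intervals, axes from 0. nta-miR168a is slightly higher in SS in the upper row (4758 and 4662 RPM against 4569.7 and 4536) and lower in SS in the lower row (7.31% and 7.18% against 9.47% and 9.41%).

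The difference between the lines was tested by edgeR's quasi-likelihood method, scaled by TMM factors, on 52 miRNAs, of which 27 (51.9%) passed an adjusted p of 0.05, 18 higher in SS (34.6%) and 9 lower (17.3%). nta-miR168a fell by 0.25 ± 0.02 on the log2 scale (SE, edgeR adjusted p = 2.61e-29). Where both LS libraries were summed it fell by 0.26 (edgeR adjusted p = 1.3e-27), where 44.2% of the tested miRNAs passed, 30.8% higher and 13.5% lower. ath-miR162a-3p was at 0.11 ± 0.11 (edgeR adjusted p = 0.445) and ath-miR403-3p at 0.03 ± 0.17 (edgeR adjusted p = 0.883), so neither met the threshold.

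Scaled by the library totals that the authors give, 36 miRNAs passed (69.2%), 33 of them higher in SS (63.5%) and 3 lower (5.77%). Here nta-miR168a turned to 0.049 ± 0.015 (SE, edgeR adjusted p = 0.00306), higher in SS. It was also called where both LS libraries were summed (edgeR adjusted p = 3.01e-06). The call ended without LS library 2 (edgeR adjusted p = 0.0962) and without SS library 1 (edgeR adjusted p = 0.0701). ath-miR162a-3p rose by 0.41 ± 0.11 with these totals (edgeR adjusted p = 0.00047), a call that ended without LS library 2 (edgeR adjusted p = 0.136) and held where both LS libraries were summed (edgeR adjusted p = 0.0276). In that fit, 63.5% of the tested miRNAs passed, 57.7% higher and 5.77% lower. ath-miR403-3p was at 0.32 ± 0.17 without a call (edgeR adjusted p = 0.0922).

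The change of scaling moved the median log2 fold change of all tested miRNAs from 0.12 to 0.41. It left the members' distance from that median as it was, since a scaling factor shifts all miRNAs alike. Measured from the median, nta-miR168a stood at -0.36 with both scalings and between -0.37 and -0.30 over 21 settings. It ranked 9 from the lowest among 52 with both scalings, and from 8 to 10 with 1 library left out. ath-miR162a-3p stood at -0.0015 with TMM and -0.0014 with the totals (rank 26), and ath-miR403-3p at -0.09 with either (rank 22). Over the 21 settings ath-miR162a-3p ranged from -0.11 to 0.13 and ath-miR403-3p from -0.15 to 0.02, so their side of the median was not fixed. These distances are a description and carry no test.

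**Figure D2:**
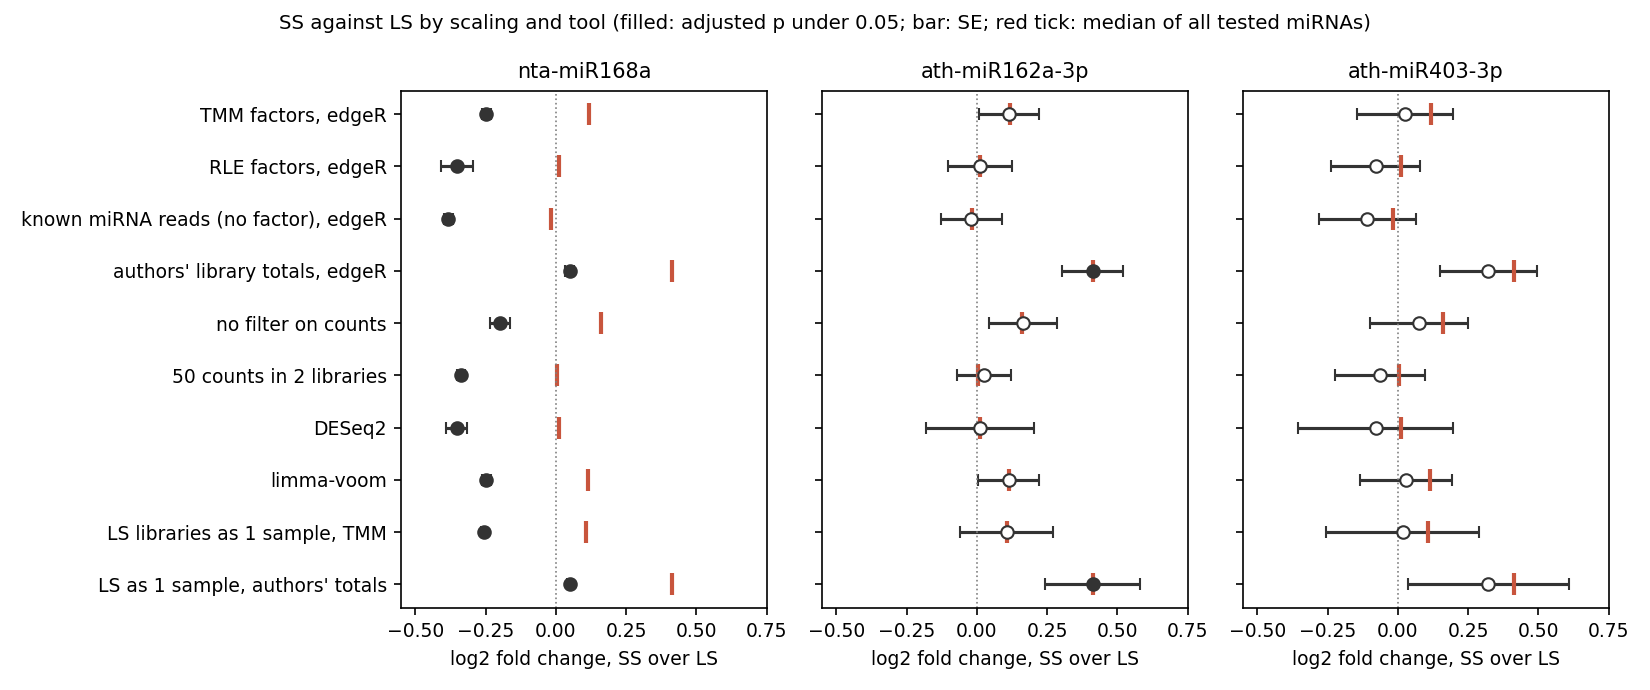
Log2 fold change of SS over LS (x axis, bars SE) of the 3 tested miRNAs under 10 settings of scaling, filter and tool (y axis), filled where the adjusted p is under 0.05, with the median of all tested miRNAs as a red tick. nta-miR168a stays left of the red tick in each setting shown, while its side of 0 changes from -0.25 with TMM to 0.049 with the authors' library totals.

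Ratios between the members within a library do not depend on any scaling. There were 197 and 212 reads of nta-miR168a for each read of ath-miR162a-3p in LS, against 171 and 149 in SS. Both SS ratios lay below both LS ratios. The mean log2 ratio was 7.67 in LS and 7.32 in SS, a difference of -0.36. An exact two-sided permutation test over the 4 libraries gave p = 0.333, the smallest p this design allows. From summed reads, the ratio in SS was 0.778 of that in LS (exact counting interval 0.664 to 0.909).

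The ratio of nta-miR168a to ath-miR403-3p was 375 and 443 in LS and 331 and 343 in SS, also with no overlap. Its counting interval for SS over LS, 0.659 to 1.04, included equality (exact permutation p = 0.333). The ratio of ath-miR162a-3p to ath-miR403-3p was 1.91 and 2.09 in LS and 1.93 and 2.31 in SS, with overlap (exact permutation p = 0.667, SS over LS 1.06, counting interval 0.806 to 1.40). These were 3 comparisons, with no p that any adjustment could bring under the threshold. Among all 1326 pairs of tested miRNAs, 952 (71.8%) had ratios that did not overlap between the lines, so 2 of 3 is near the background.

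**Figure D3:**
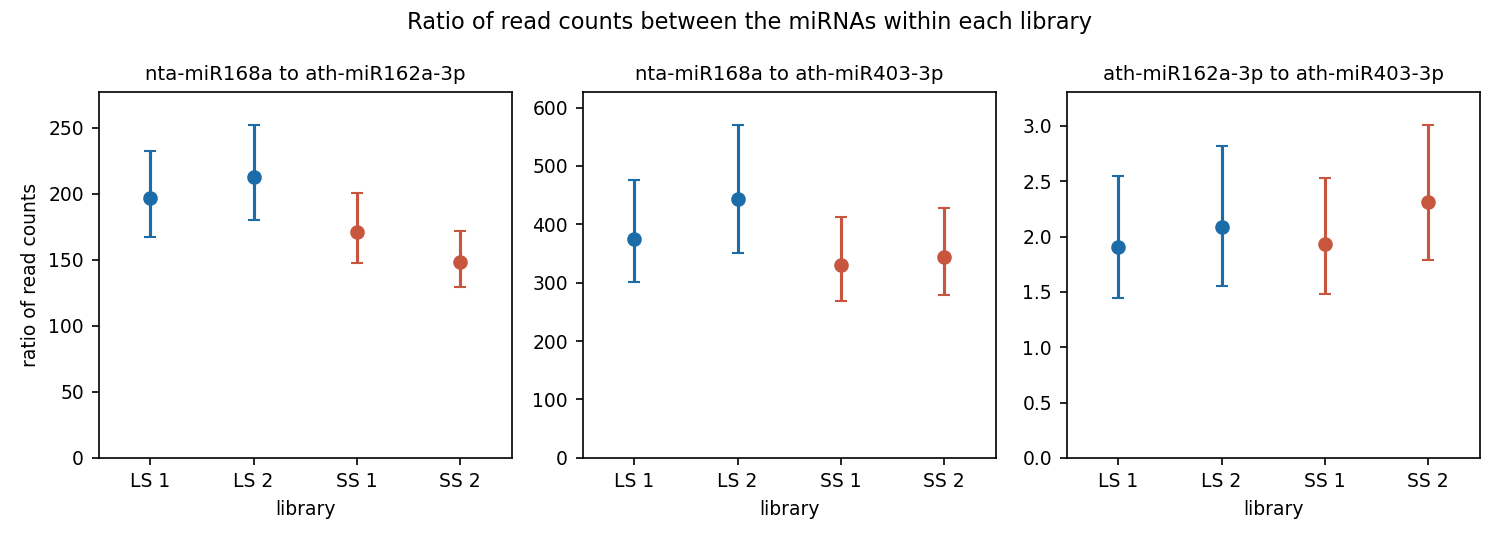
Ratio of the read counts of 2 miRNAs within each LS (blue) and SS (red) library (y axis, from 0), with exact 95% counting intervals as bars. The ratio of nta-miR168a to ath-miR162a-3p is 197 and 212 in LS and 171 and 149 in SS, while that of ath-miR162a-3p to ath-miR403-3p overlaps between the lines.

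The miRNAs whose levels ran most like each member over the 4 libraries were found by the distance between log2 RPM profiles, each centred on its own mean. For nta-miR168a these were ath-miR171a-3p (distance 0.10), aly-miR160b-3p (0.13) and ath-miR165a-3p (0.14), against a median distance of 0.54 to all others. For ath-miR162a-3p they were ptc-miR167f-5p (0.12), bna-miR6029 (0.13) and ath-miR172a (0.15), with a median of 0.39. For ath-miR403-3p they were bol-miR9408 (0.055), bna-miR156a (0.13) and bna-miR161 (0.14), with a median of 0.36. Of these, bol-miR9408 (1.34 to 2.15 RPM) and bna-miR156a (1.34 to 2.32 RPM) had few reads. Their distances carry counting error that was not measured, and the 0.5 added to each RPM shrinks differences at such levels. No member was among the 3 nearest of another, and ath-miR403-3p stood at rank 12 for ath-miR162a-3p.

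Other miRNAs were read from a list drawn up for silencing pathways, with miR390, miR391, miR173, miR828 and miR838. Of these, miR390 and miR391 have values among the known miRNAs used here. ath-miR390a-5p, which starts the trans-acting siRNAs of TAS3 transcripts, stood at 474 and 450 RPM in LS and at 707 and 722 RPM in SS. Its log2 fold change was 0.33 ± 0.04 with TMM (SE, edgeR adjusted p = 5.89e-15), 0.63 when scaled by the authors' totals and 0.20 with no factor, higher in SS each time. ath-miR391-5p stood at 32.8 and 32.1 RPM in LS and 58.1 and 59.3 RPM in SS and also rose, by 0.56 ± 0.08 with TMM (edgeR adjusted p = 3.85e-10) and by 0.86 when scaled by the authors' totals. Of the 5 tested miRNAs among this list and the members, 2 were higher and 1 lower with TMM, beside 34.6% higher and 17.3% lower of all tested. The 2 include ath-miR391-5p, whose part in silencing was not examined here. Scaled by the authors' totals, 4 of 5 were higher and 0 lower, beside 63.5% and 5.77% of all tested, and of those 4 the calls of nta-miR168a and ath-miR162a-3p ended without LS library 2. The median of these 5 was 0.11 with TMM and 0.41 with those totals, beside 0.12 and 0.41 over all tested miRNAs.

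In the authors' deposited tables, none of the 4 names was marked as changed in either numbered pair. The authors' deposited tables gave nta-miR168a a log2 fold change of 0.058 in pair 1 (p = 1.11e-06) and 0.04 in pair 2 (p = 0.000765), each from 1 library against 1. For ath-miR162a-3p the authors' deposited tables gave 0.26 (p = 0.113) and 0.55 (p = 0.000391).

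In the degradome, cleavage at miR168 sites was listed in both lines, at miR162 sites in SS, and at miR403 sites in neither. Each line had 1 library, so there is no replicate check, and the tables used here give no read numbers at a site. The LS table stops at target BnaA09g07450D while its targets run in ascending order. Up to that point, both lines held the same 4 entries: bra-miR168c-5p and ath-miR168a-5p at position 585 of BnaA05g17460D and at position 429 of BnaA08g03260D. Of all entries of known miRNAs, 79 were shared in this way, 83.2% of those in LS and 61.7% of those in SS up to that point. The 4 entries repeat the same site under both miR168 names, so they are not independent observations. The remaining 7 SS entries, both of miR162 among them, lie on targets beyond that point, so their absence from the LS table cannot be read as a difference between the lines.

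The miR168 targets fell on both subgenomes of rapeseed, whose chromosomes carry the letters A and C in the identifiers. In SS, BnaC05g25730D was listed at position 240 and BnaC08g46720D at position 417, each with both miR168 names. The site was the same 21 bases in these and in both A targets, although it lay at 4 different positions in the mRNAs. BnaCnng63830D, listed at position 414 with bra-miR168c-5p alone, had the other site shown above. The 2 miR162 targets, BnaA10g00800D at position 2903 and BnaC05g00860D at position 2894, shared all 22 bases of their site. No entry of another family fell on any of these 7 targets. Of the other pathway miRNAs, miR390 had 3 SS entries on 3 further targets and 0 LS entries. Of these targets, BnaA09g50920D and BnaC01g34700D lie beyond the point where the LS table stops, and BnaA01g27230D lies before it. For those beyond it, the absence from LS cannot be read as a difference between the lines. BnaA01g27230D was absent from LS within the covered range, at an authors' p of 0.032 in SS. With 1 library per line this difference was not tested. Of the SS entries of known miRNAs up to that point, 61.7% were also in LS.

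The families differed in how closely their sites paired. All 21 bases of bra-miR162-3p were paired at both targets, with 1 base of the mRNA left opposite a gap inside the seed. At the site shared by 4 targets, bra-miR168c-5p had 17 of 21 bases paired, a wobble pair at position 8 and mismatches at positions 2, 14 and 21, so its seed paired at 5 of 7 bases. ath-miR168a-5p had 18 of 21 paired there, with a mismatch at position 2, a wobble at 8 and position 14 opposite a gap. In its alignment 1 base of the mRNA was opposite a gap as well. That alignment pairs the C printed at position 15, and so carries the same limit as the printed sequence. At BnaCnng63830D bra-miR168c-5p had 17 bases paired and 6 of 7 in the seed. Positions 3 and 9 were opposite gaps there, with a wobble at 14, a mismatch at 18 and 1 base of the mRNA opposite a gap.

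The authors' alignment score, a penalty that is lower for closer pairing, was 1 for both miR162 entries, 3.5 for 8 of the 9 miR168 entries in SS and 4.5 at BnaCnng63830D. Among all 382 SS entries of known miRNAs, 26.2% had a score of 3.5 or more and 25.4% a score of 1 or less. Every seed base of the miRNA was paired in 2 of 2 miR162 entries and 0 of 9 miR168 entries, against 56.0% of those 382. This count ignores mRNA bases opposite a gap, such as the base that interrupts the seed pairing of miR162. By median score miR168 shared rank 18 and miR162 shared rank 2 of 20 families, counted from the closest pairing. Of the 9 miR168 entries, 8 repeat the same site, and so do both miR162 entries. These ranks and counts of entries are thus not independent observations. Bases 10 and 11 of the miRNA, between which plant miRNAs direct the cut, were paired in every entry of both tables that has a full alignment, so their pairing in the members is no feature of these families.

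**Figure D4:**
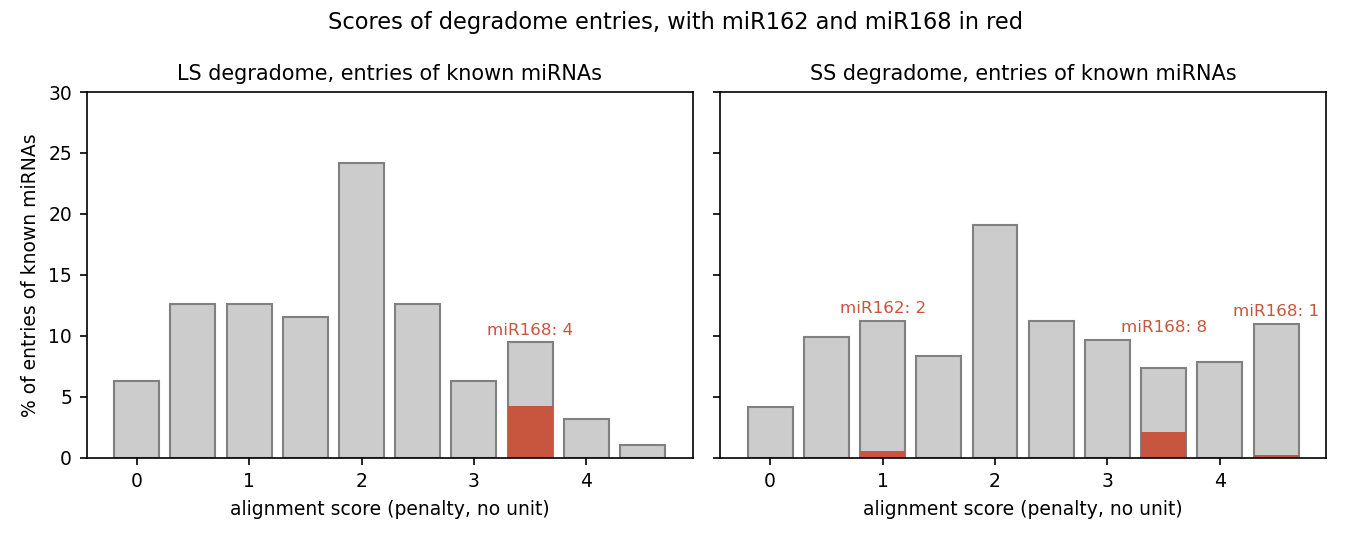
Share of the entries of known miRNAs at each alignment score (x axis, penalty without unit) in the LS (95 entries) and SS (382 entries) degradome tables, with the part from miR162 and miR168 in red and their number of entries above the bar. In SS the miR162 entries sit at a score of 1 and the miR168 entries at 3.5 and 4.5, and in LS the 4 miR168 entries sit at 3.5.

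All 15 entries had category 0, which in the scheme commonly used for degradome data marks a cut site with more reads than any other position of its mRNA. Which scheme the authors used is not given in the sources used here. Category 0 held 95.8% of the LS and 69.9% of the SS entries of known miRNAs, and 10 of 20 families in SS had no other category. The authors' p-values for bra-miR168c-5p were 0.01 in LS and 0.002 in SS at both shared targets, and those for ath-miR168a-5p were 0.004 in both lines. Of 79 known entries shared between the lines, 27 had a lower p in SS, 40 the same and 12 a higher one. The p of both miR162 entries was written as 0, as for 22.3% of the SS entries of known miRNAs, in values that the authors gave to 3 decimals.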

How the data were processed

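The deposited tables of known miRNAs hold whole-number read counts that were not normalized and the total reads of each library, per the file headers. Where a miRNA has reads in a library, its deposited RPM value is its count per 1000000 reads of that total. Deposited RPM values of miRNAs without reads were not checked. The log2 fold change and p-value in the authors' tables compare 1 SS with 1 LS library, per the file headers. No aligner, miRNA database or genome build is named in the sources used here. The deposited degradome tables give a position, score, category and p-value per miRNA and mRNA pair, with the alignment and no read numbers.

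The counts were tested with edgeR 4.0.16 in R 4.3.3 (quasi-likelihood, TMM factors, two-sided, Benjamini-Hochberg over all tested miRNAs) on miRNAs that reached 10 counts in 2 or more libraries. The SE is the log2 fold change divided by the square root of F. Alternatives were other factors and filters, DESeq2 1.42.0, limma-voom (limma 3.58.1), the replicate number as a block, the LS libraries as 1 sample and each library left out, where a line left with 1 sample is assumed to vary like the other. Settings that join the authors' library totals with another choice, and the crossed block, were chosen after seeing the data. Profile distances used log2(RPM + 0.5). All rows with the family numbers were named, with the 3 nearest miRNAs of each tested member. The members and lists were chosen with earlier results of these data known. Tables of predicted miRNAs were not used. RefSeq's Da-Ae gene table matched 7 of 471 target identifiers.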

Additional observations from a re-analysis of the deposited data

How the results depend on the processing

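nta-miR168a turned from lower to higher with the authors' library totals, at 0.049 alone, 0.049 with the replicate number as a block and 0.049 with the LS libraries as 1 sample, and its call on the TMM scale held in every other setting run. With 1 library left out it ranged from -0.25 to -0.23 with TMM and from 0.034 to 0.064 with the authors' totals (0.054 without LS library 1, 0.044 without LS library 2). ath-miR162a-3p passed the test with the authors' totals at 0.41, at 0.41 also with the replicate block and with the LS libraries as 1 sample, and was at -0.020 with no factor. With 1 library left out it ranged from 0.02 to 0.23 with TMM and from 0.32 to 0.49 with those totals (0.47 without LS library 1). ath-miR403-3p passed in none of the settings run and was below 0 with RLE factors (-0.079), no factor (-0.11), 50 counts in 2 libraries (-0.065) and DESeq2 (-0.079). With 1 library left out it ranged from -0.094 to 0.15 with TMM and from 0.2 to 0.45 with the authors' totals. The cause of these turns was not tested beyond the shift of the median of all miRNAs that each scaling gives. When 1 library was left out, the change in the log2 ratio of ath-miR162a-3p to ath-miR403-3p ranged from -0.048 to 0.21. The ratios with nta-miR168a kept their direction, from -0.46 to -0.25 with ath-miR162a-3p and from -0.40 to -0.16 with ath-miR403-3p.

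Same-numbered libraries did not deviate together (Pearson r = -0.25 across 52 miRNAs), and the labels do not tie the numbers to a shared batch. With the replicate number as a block, 23 miRNAs passed in place of 27, and 25 with the numbers crossed. The block changed no call of the members, with nta-miR168a at -0.25, ath-miR162a-3p at 0.11 and ath-miR403-3p at 0.03.

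The degradome entries of these families in LS went from 4 to 2 with p under 0.01 only, and to 2 as distinct sites. Those in SS went from 11 to 4 when cut at the target where the LS table ends, and to 7 as distinct sites. Depth limits ath-miR168a-5p most, at 1 to 8 reads per library.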
